A study of Homo sapiens with 2 samples.

Results

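Cytosolic ribosomal proteins are the protein components of the ribosomes that translate messenger RNA in the cytoplasm. The rule that chose them uses annotation alone, though it was set with earlier results of these data known. It takes probe sets that the array's annotation pairs with 1 symbol. That symbol is RPL or RPS followed by a digit, RPLP0, RPLP1, RPLP2 or RPSA, without S6 kinases, pseudogenes and antisense genes. The rule took 124 probe sets of 63 genes among 19775 genes with a probe set of their own. Of these, 32 genes encode large subunit proteins, 20 encode small subunit proteins and 8 are paralogs, that is, gene copies such as RPL22L1 and RPS27L. The letters of the rule also took RPS19BP1, which encodes a protein that binds RPS19, the divergent transcript RPL34-DT and the Y-linked RPS4Y1. These 3 were kept out of all medians, and no level of RPS4Y1 is given. RPS19BP1 had 4155.9 with pDCs and 4860.6 alone (log2 ratio -0.23), and RPL34-DT was below the floor on both arrays.

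The study set MM.1S cells cultured with plasmacytoid dendritic cells (pDCs) beside MM.1S cells cultured alone, to look for ways in which pDCs support growth and drug resistance of myeloma cells. MM.1S is an established human multiple myeloma line, a tumour of plasma cells, and pDCs are the dendritic cells known for making type I interferon. Total RNA of each culture was hybridised to 1 Affymetrix HG-U133 Plus 2.0 array, so every value below is 1 array per group with no replicate error, no test and no p-value. The culture time, the source of the pDCs and whether they were removed before RNA extraction are unstated in the sources used here. In such RNA, fewer cells of a type and less RNA per cell cannot be told apart.

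Each ribosome joins a small subunit, which reads the codons of the messenger RNA, to a large subunit, which forms the peptide bonds. Plasma cells and myeloma cells secrete large amounts of immunoglobulin and depend on a large ribosome supply. Messenger RNAs of ribosomal proteins carry a terminal oligopyrimidine (TOP) tract: they begin with a cytosine followed by an unbroken run of pyrimidines, C or T in the DNA. Through this tract their translation is under the control of the kinase complex mTORC1 and of the RNA-binding protein LARP1, so the level of the messenger RNA and the output of protein can part.

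The start sites show the feature that these genes share and the rule did not use. RefSeq promoter sequences (GRCh38.p14) were found for 46 of 52 subunit genes and 6 of 8 paralogs, and no sequence was used for RPL23A, RPL30, RPL37, RPL7, RPL8 and RPS15A. A run of at least 5 pyrimidines began within 5 bases of an annotated start in 35 of 46 subunit genes (76.1%), against 28.9% of all 27305 genes in the table. When a longer run that began earlier but still had 5 pyrimidines from such a position was also counted, a rule added after the data were seen, 42 of 46 had one (91.3%), against 34.9% of all genes. The annotated first base was C at 37 of the 53 starts of these genes (69.8%), against 14.7% of all 35116 starts. The 4 subunit genes without a run by either rule were RPL27, RPL6, RPS15 and RPS29. Among paralogs, RPL22L1 had a run by both rules and RPL36AL by the wider one, so 1 and 2 of 6. The windows below hold 10 bases before and 20 bases from the annotated start, 5′ to 3′ on the gene's strand, with the pyrimidine run of the wider rule in capitals as far as it lies in the window. They are shown for some subunit genes at the low end of the ratios, for RPS25 at the high end, and for some paralogs beside the parents RPL22 and RPS27. RPL34 and RPL14, with lower ratios than RPL24, are left out. So are RPS15 and RPL6, which lie near the high end and have no run. The run of RPL36AL begins before its window, and RPS27L and RPL7L1 have none.
RPL12 (chr9:127451387-127451416, minus strand): cgatttccggCCTCTCggctttcggctcgg
RPL24 (chr3:101686699-101686728, minus strand): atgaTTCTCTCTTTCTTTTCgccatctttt
RPS21 (chr20:62387093-62387122, plus strand): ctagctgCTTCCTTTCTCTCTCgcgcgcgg
RPS6 (chr9:19380217-19380246, minus strand): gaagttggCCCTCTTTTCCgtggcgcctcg
RPS25 (chr11:119018324-119018353, minus strand): gcagcgCTTCCTTTTTgtccgacatcttga
RPL22 (chr1:6199576-6199605, minus strand): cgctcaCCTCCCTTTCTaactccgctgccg
RPL22L1 (chr3:170870176-170870205, minus strand): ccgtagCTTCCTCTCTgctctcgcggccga
RPS27 (chr1:153990752-153990781, plus strand): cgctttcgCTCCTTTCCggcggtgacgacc
RPS27L (chr15:63157458-63157487, minus strand): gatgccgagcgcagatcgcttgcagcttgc
RPL36AL (chr14:49620607-49620636, minus strand): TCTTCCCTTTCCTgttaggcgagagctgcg
RPL7L1 (chr6:42879606-42879635, plus strand): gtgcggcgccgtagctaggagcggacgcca

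Over the 300 bases of each promoter (250 before and 50 from the start, both strands), the letters CCGGAAG stood in 17 of the 46 subunit genes (37.0%), against 12.2% of all genes. TATAAA stood in 6.52% against 14.0%, and AAGATGGC in 8.70% against 3.52%. CCGGAAG is the core bound by ETS-family factors, TATAAA is the TATA box, and AAGATGGC is part of the motif of the factor YY1. Subunit genes whose run began within 5 bases of the start had a median log2 ratio of -0.18 (n = 35), and the 11 others also had -0.18. By the wider rule the medians were -0.18 (n = 42) and -0.09 (n = 4), and the range of the 4, from -0.23 to -0.05, lies within that of the 42. No factor's binding was measured.

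Signals of probe sets were compared between the arrays as the log2 ratio, co-culture with pDCs over MM.1S alone. A signal below the array's median, 115.9 with pDCs and 124.0 alone, was set to that floor, and each gene was read on the brightest of its probe sets, by the mean log2 signal of both arrays. Both arrays had the same trimmed mean signal, 500.1, so a shift shared by nearly all transcripts cannot show in these values. Plasma cell markers were present on both arrays, with SDC1, CD38, IRF4 and XBP1 all above the floor. Of 15 pDC markers, 8 were above the floor with pDCs and 10 alone, and of 3 that define pDCs, CLEC4C and IL3RA were below it on both and LILRA4 was above it on both, with 306.5 and 255.7. Their summed signal was 26258 with pDCs and 18099 alone, of which LAMP5 made 19601 and 9053. Of 11 pDC markers with a ratio, only LAMP5 was past 2-fold higher and 4 were past 2-fold lower. Of all genes with a ratio, 3.17% and 4.51% were. Among the 4, BCL11A and TLR9 were above the floor on 1 array only, and another probe set of BCL11A gave a positive bound (0.20). Of 10 monocyte and macrophage markers, 3 and 5 were above the floor, with summed signals of 668 and 1657, of which LYZ made 17.0 and 711.2. The other LYZ probe set was below the floor on both arrays. Of 8 T cell markers, 4 and 3 were above it (5457 and 4236), of which CD28 made 4807 and 3582. CD3D and CD3E were below the floor on both arrays. B cell markers had summed signals of 763 and 882, with 3 and 4 above the floor. Erythroid and platelet markers had 2162 and 2928, of which PPBP made 30.6 and 957.0, with 1 and 2 above the floor. The 3′ to 5′ signal ratio of ACTB, a measure of RNA integrity, was 8.09 with pDCs and 19.5 alone, and that of GAPDH was 2.46 and 3.07. The part of these differences in the results below was not tested.

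As deposited and on the brightest probe set of each gene, ribosomal protein genes were slightly lower in co-culture almost without exception, and by similar amounts. Of 52 subunit genes, 51 had a negative log2 ratio, while 53.3% of all 14406 genes above the floor did. After quantile normalization 41 of 52 were negative, and after a loess correction for signal 38 were. The median log2 ratio of the 52 was -0.18 (1.13-fold lower), beside -0.04 for all genes. None was 2-fold lower or higher, where 4.51% and 3.17% of all genes were, and 1 gene, RPL12, was 1.5-fold lower, where 15.3% of all genes were. With the floor, no subunit gene was 1.5-fold higher, against 11.5% of all genes. Without it, RPL36A, whose ratio is otherwise only a lower bound, had a log2 ratio of 0.63, past 1.5-fold. The middle 50% of the 52 ratios spanned 0.14 on the log2 scale, and that of all genes 0.69.

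**Figure D1:**
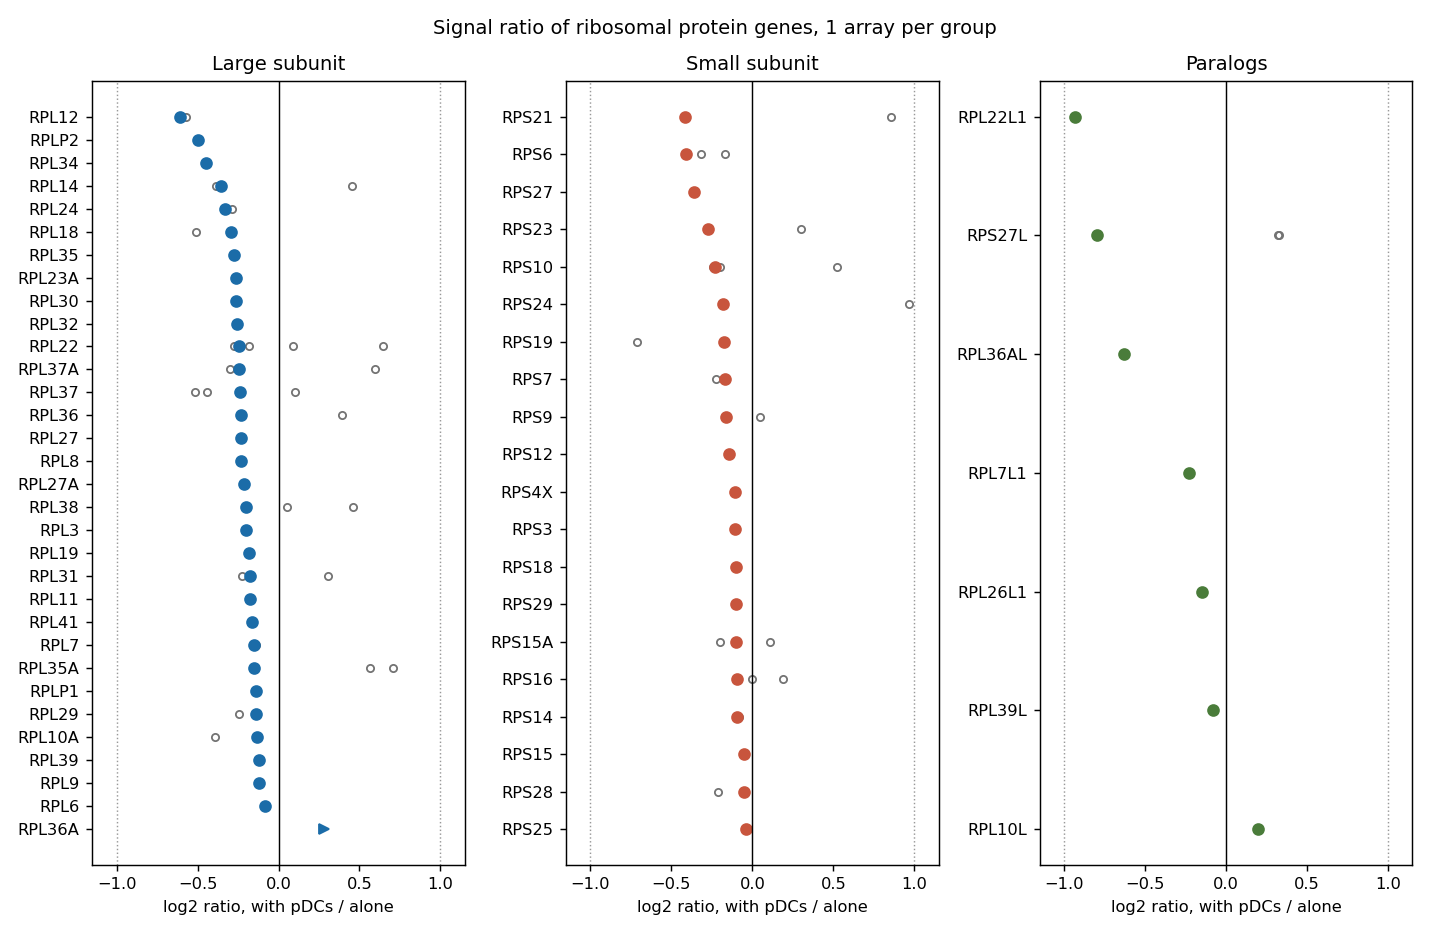
Log2 ratio (MM.1S with pDCs over alone, 1 array each) of every subunit gene and of the 7 paralogs above the floor; filled points are the probe set that stands for the gene, open circles its other probe sets with both signals over the floor, the triangle (RPL36A) a lower bound, and dotted lines mark 2-fold. Filled points lie left of 0 for 51 of 52 subunit genes (41 after quantile normalization, 38 after loess), while open circles lie on both sides.

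Nearly all of these genes sit at the top of the signal range, where other genes also tended to be lower. Of the 52, 48 had a mean log2 signal of at least 15, that is 32768, a limit chosen after the values were seen. All 48 had a negative ratio, with a median of -0.18. Of the 63 other genes with such signals, 47 (74.6%) were negative and the median was -0.10. Of these 63, too, none was 2-fold lower or higher, and their middle 50% spanned 0.22, nearer to the 0.14 of the subunit genes than to the 0.69 of all genes. In the highest signal decile of other genes the median was -0.06, and in the decile below it 0.01. The part of signal strength in the ratios of ribosomal proteins was addressed only by the scaling alternatives above.

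**Figure D2:**
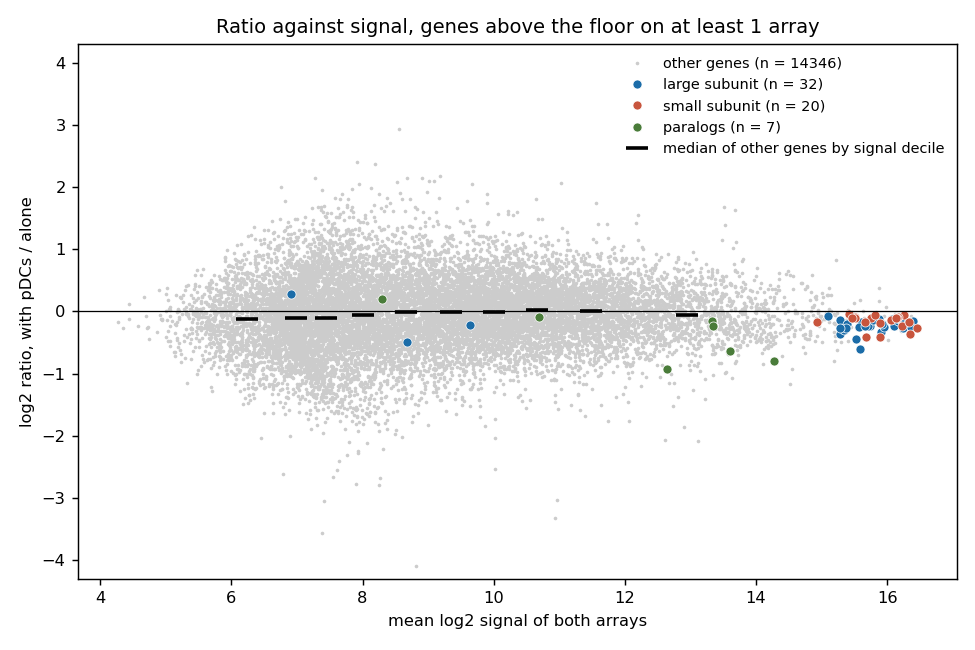
Log2 ratio against the mean log2 signal of both arrays for genes above the floor on at least 1 array; grey points are other genes, coloured points are ribosomal protein genes, and black bars are the medians of other genes in signal deciles. Subunit genes form a tight group at the right end, just below 0, and the paralogs lie at lower signals with a wider spread.

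Large subunit genes had a median log2 ratio of -0.22, or 1.17-fold lower in co-culture, with 31 of 32 negative. RPL12, a protein of the stalk base that helps bind translation factors, had a signal of 39982 with pDCs and 61001 alone, a log2 ratio of -0.61. Its other probe set gave 39978 and 59283 (-0.57). RPL12 was the lowest subunit gene, and under median centring, quantile normalization and loess it stayed below 0 but within 1.5-fold, at -0.57, -0.50 and -0.49.

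RPL34 had 40353 and 55036 (-0.45), and RPL14 had 35137 and 44980 (-0.36). A second bright probe set of RPL14 gave -0.38, while a dim one went the other way, with 734 and 536 (0.45). RPL24, which takes part in a bridge between the subunits, had 54554 and 68591 (-0.33), and its other probe set gave -0.29. RPL12 and RPL24 were lower in co-culture on each probe set above the floor.

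At the other end of the large subunit, ratios came close to 0. RPL6 had 34168 with pDCs and 36141 alone (-0.08), RPL9 had 71648 and 77876 (-0.12), and RPL39, a small protein that lines the exit tunnel, had 66266 and 72173 (-0.12). RPL9 and RPL39 turned slightly positive after quantile normalization (0.04 and 0.01) and RPL9, RPL39 and RPL6 after loess (0.02, 0.01 and 0.02). RPL10A had 57291 and 62683 (-0.13), though -0.39 on its other probe set. That gap of 0.26 was the widest among the 13 subunit genes with at least 2 probe sets at a mean log2 signal of 15 or more. The median gap among the 13 was 0.04, so bright probe sets of 1 gene mostly gave the same ratio.

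RPL36A was the only subunit gene with a positive ratio, and it was measured poorly: its 1 probe set had 150.5 with pDCs and 97.0 alone, below the floor, a log2 ratio of at least 0.28. RPLP2 and RPL27A were also read on dim probe sets, with 344.6 and 486.4 for RPLP2 (-0.50) and 739.8 and 859.2 for RPL27A (-0.22). RPLP1 and RPLP2 form the acidic stalk that recruits elongation factors; RPLP1 had 53891 and 59390 (-0.14). RPLP0, which anchors the stalk, was not analysed here. RPL11, which with RPL5 and the 5S RNA binds MDM2 and thereby links ribosome assembly to p53, had 46542 and 52513 (-0.17), and RPL5 is named only on probe sets that list several symbols.

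Of 8 proteins at the exit tunnel and its rim, 5 were measured, and all were negative. Of large subunit genes 31 of 32 were, and of all genes 53.3%. The 5 ranged from -0.27 to -0.12 with a median of -0.18, though RPL39 turned positive under quantile normalization and loess. RPL35 had 36046 with pDCs and 43563 alone (-0.27), and RPL23A, which binds the signal recognition particle, had 70413 and 84591 (-0.26). RPL19 had 49817 and 56432 (-0.18). These values lie within the range of the remaining large subunit genes.

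Small subunit genes had a median log2 ratio of -0.13, or 1.09-fold lower, and all 20 were negative as deposited. RPS21 had 52470 with pDCs and 69937 alone (-0.41). RPS6, the phosphorylation target of the S6 kinases, had 45493 and 60328 (-0.41), with -0.31 and -0.17 on its other bright probe sets. RPS27 had 73795 and 94773 (-0.36). These 3 genes were the lowest of the subunit, whose middle 50% ran from -0.19 to -0.10.

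RPS23, a protein of the decoding centre, had 82187 and 99201 (-0.27), and RPS10 had 70492 and 82584 (-0.23). Ratios closest to 0 were those of RPS25, used by some viral internal ribosome entry sites, with 43204 and 44441 (-0.04), RPS28 with 56565 and 58580 (-0.05), and RPS15 with 76928 and 79885 (-0.05). RPS16 had 71152 and 76128 (-0.10), and RPS14, whose loss causes the anaemia of 5q- syndrome, had 45328 and 48488 (-0.10). RPS25, RPS28, RPS15 and RPS16 were positive after quantile normalization (0.06, 0.06, 0.11 and 0.05) and, with RPS14, after loess (0.07, 0.07, 0.08, 0.04 and 0.02). The direction of these 5 genes thus depends on the scaling.

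The large subunit stood lower than the small subunit by 0.10 on the log2 scale (1.07-fold) between medians. Of 32 large subunit genes, 28 lay at or below the small subunit median, and 5 of 20 small subunit genes lay at or below the large subunit median. The 2 sets overlapped widely, from -0.61 to 0.28 and from -0.41 to -0.04, and the difference is about as large as the middle 50% of either set (0.11 and 0.09). It kept its sign in all 14 alternatives that were run, between -0.12 and -0.06. It was smallest, at -0.06, when 13 subunit genes found only on probe sets with several symbols were added. With 1 array per group it could not be tested. After quantile normalization and loess the large subunit median (-0.0963 and -0.1045) lay below that of all genes (-0.0245 and -0.0199), and the small subunit median (-0.015 and -0.0039) lay above it.

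**Figure D3:**
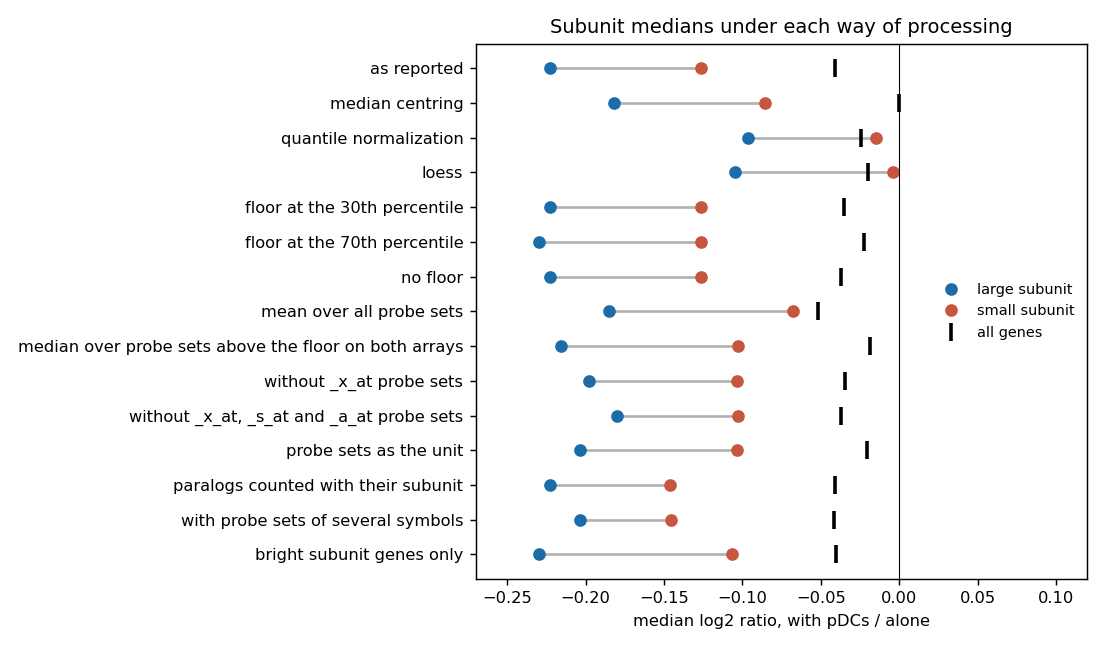
Median log2 ratio (MM.1S with pDCs over alone) of large subunit genes, small subunit genes and all genes, as reported and under each of 14 alternatives. The large subunit lies left of the small subunit in every line, and both move towards 0 with quantile normalization and loess.

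Paralogs varied far more than the subunit genes, but not more than genes in general. The span between quartiles of the log2 ratio was 0.14 for subunit genes, 0.69 for all genes and 0.60 for paralogs. Of 8, 7 were above the floor, 6 of these were negative, where 53.3% of all genes were, 3 were 1.5-fold lower, where 15.3% of all genes were, and the median log2 ratio was -0.23. RPL22L1, the copy of RPL22, had 4627 with pDCs and 8829 alone on its 1 probe set, a log2 ratio of -0.93 (1.91-fold lower), and stayed between -0.93 and -0.89 in each alternative. RPL22 itself had 44855 and 53176 (-0.25), with -0.27 and -0.18 on bright probe sets but 0.09 and 0.65 on dimmer ones, the last with 8144 and 5202. On those, RPL22 and RPL22L1 went opposite ways.

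RPS27L, a copy of RPS27 known as a p53 target, had 14983 with pDCs and 26077 alone (-0.80) on its brightest probe set. Its 2 other probe sets were higher in co-culture, with 682.5 against 546.9 and 770.5 against 615.4 (both 0.32). The direction of RPS27L thus depends on the probe set: the median over its probe sets was 0.32 and the mean was -0.05. RPL36AL, the copy of RPL36A made from a gene without introns, had 10034 and 15526 (-0.63). The alternatives left it between -0.63 and -0.56, where the lower end is under 1.5-fold.

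The remaining paralogs had ratios closer to 0 or were dim. RPL7L1 had 9598 with pDCs and 11276 alone (-0.23), beside -0.15 for RPL7, and RPL26L1 had 9729 and 10776 (-0.15). RPL39L had 1613 and 1708 (-0.08), beside -0.12 for RPL39. RPL10L, a copy of RPL10 known from testis, had 336.6 and 294.1 (0.19), and RPL3L, a copy known from muscle, was below the floor on both arrays. Probe sets of a parent and its copy can bind each other's transcripts and those of pseudogenes, so single values of paralogs are uncertain.

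Probe sets of 1 ribosomal protein gene disagreed once the dim ones were read. All 65 probe sets of subunit genes with a mean log2 signal of at least 15 had a negative ratio. Of 90 other probe sets with such signals, 61 did (67.8%). Counting all 96 probe sets of subunit genes with both signals over the floor, 18 were positive, where 49.6% of all such probe sets were. Of the 27 among them with a mean under 13, 16 were positive (median 0.11), where 50.2% of all probe sets of that signal were. The limits of 15 and 13 were chosen after the values were seen. RPS24 had 57173 with pDCs and 64821 alone (-0.18) on its bright probe set and 657.9 and 336.4 on its dim one (0.97). RPS21 had 0.86 on its dim probe set (2087 and 1151), opposite to its bright one.

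RPL37A and RPL22 followed the same order, with -0.25 on the brightest probe set of each and up to 0.60 and 0.65 on dimmer ones, and RPS27L, described above, is the fifth of the 5 members with the widest gaps. One probe set of RPS28, with 365.7 with pDCs and 62.9 alone, below the floor, was at least 2.95-fold higher, the only probe set of a subunit gene past 2-fold. Whether the dim probe sets bind the same transcripts as the bright ones was not tested. Without probe sets of the _x_at class, which can bind several transcripts, the medians were -0.20 for the large and -0.10 for the small subunit, 39 of 45 genes were negative, and RPL22 turned positive (0.09).

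Diamond-Blackfan anaemia is a failure of red cell formation caused by loss of 1 copy of a ribosomal protein gene. Of 20 genes mutated in it, 15 were measured and all were negative as deposited, with a median of -0.18. Of all 52 subunit genes 51 were negative, and of all genes 53.3%. RPS28 turned positive under quantile normalization and loess. Among the 15, RPS27 (-0.36), RPL18 with 37560 and 46108 (-0.30), and RPL35 (-0.27) were farthest from 0, and RPS28 (-0.05) was nearest. The median of the 15 is the same as that of all 52 subunit genes to 2 decimals. FAU, which encodes ribosomal protein S30 fused to a ubiquitin-like protein, lies outside the rule by its symbol; it had 45511 and 54450 (-0.26).

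Other TOP messenger RNAs and translation factors did not share the near-uniform sign. Elongation factors had a median of 0.04 over 6 measured genes, 4 positive and 2 negative, where 53.3% of all genes were negative. EEF1A1, which delivers aminoacyl-tRNA, had 66304 with pDCs and 63226 alone (0.07). Its other probe sets ranged from -0.06, on a probe set nearly as bright (62133 and 64727), to 0.11. EEF2, which drives translocation, had 43433 and 42935 (0.02), though -0.20 on its other probe set. EEF1A1 and EEF2 are both known TOP messenger RNAs. EEF1D had 23750 and 30820 (-0.38) on its brightest probe set but 0.16 on the next. EIF5A had 2973 and 2813 (0.08), with 0.26 and 0.90 on its other probe sets. EIF5A2 had 353.6 and 188.5 (0.91), but -0.22 on its other probe set above the floor, and 0.30 with the floor at the 70th percentile. EEF1A2 was below the floor with pDCs, at 105.7 against 191.3 (-0.72 or lower).

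Of 14 measured genes in a list of further TOP messenger RNAs, which shares FAU, EEF1A1, EEF1D and EEF2 with the lists above, 9 were negative. That is 64.3%, against 53.3% of all genes. The median of the 14 was -0.11 and turned to 0.01 after loess. EEF1D (-0.38), EIF3H with 15700 and 19698 (-0.33), and the RNA-binding protein gene HNRNPA1 with 4446 and 3386 (0.39, and -0.22 and 0.65 on dimmer probe sets) were farthest from 0. Initiation factors had 17 of 32 genes negative (53.1%), much the same share as all genes (53.3%). Their median of -0.02 was slightly positive under median centring, quantile normalization and loess. EIF5B, which joins the subunits, had 6507 and 11916 (-0.87) and -0.76 on its next brightest probe set, but 0.30 and 0.35 on dimmer ones, EIF4G2 had 28661 and 19137 (0.58), and EIF2B4 had 1906 and 2776 (-0.54), with -0.13 on its other probe set. None of the elongation, initiation and further TOP genes was past 2-fold on the probe set that stands for it.

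Genes that make ribosomes had a lower median and a wider spread than ribosomal protein genes. The span between quartiles of their log2 ratios was 0.55, beside 0.14 for subunit genes and 0.69 for all genes. Of 53 measured genes of RNA polymerase I and ribosome assembly, 39 were negative (73.6%, against 53.3% of all genes), with a median of -0.29 that lay between -0.30 and -0.25 under the other scalings. NOC4L, needed for small subunit assembly, had 186.5 with pDCs and 418.0 alone (-1.16, 2.24-fold lower), and -0.56 with the floor at the 70th percentile. POLR1H, a subunit of RNA polymerase I, had 853.5 and 1838.8 (-1.11), with -0.61 on its next probe set and a positive bound, 0.12, on a dim one; the mean over its probe sets was -0.32. RPF2, which helps load the 5S RNA particle, had 4580 and 8723 (-0.93). NOC4L and POLR1H were the only 2 of the 53 past 2-fold lower, where 4.51% of all genes were, and none was past it higher.

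Of 13 genes that host small nucleolar RNAs, mostly noncoding TOP transcripts, 4 had a probe set with 1 symbol. All 4 were negative, where 53.3% of all genes were. SNHG32 had 5888 and 15632 (-1.41, 2.65-fold lower). It was the only 1 of the 4 past 2-fold lower, where 4.51% of all genes were. ZFAS1 had 8494 and 16614 (-0.97), with -1.03 and -0.99 on its next brightest probe sets. A dim probe set of ZFAS1 gave a positive bound (0.30). EPB41L4A-AS1 had 1617 and 2599 (-0.68). GAS5 was read on a dim probe set, with 248.7 and 393.8 (-0.66). These are 4 of 13 listed genes and do not stand for the rest.

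Genes of the control of TOP translation were mixed, with 10 of 15 negative, where 53.3% of all genes were, and a median of -0.25. That median was -0.10 when a gene's probe sets were averaged and -0.04 when their median was taken. DDIT4, an inhibitor of mTORC1, had 4022 with pDCs and 14545 alone (-1.85), RPTOR, the subunit that binds mTORC1 substrates, had 141.3 and 334.0 (-1.24, but -0.24 with the floor at the 70th percentile), and EIF4EBP1, a substrate that represses translation when not phosphorylated, had 3939 and 6628 (-0.75). LARP1 had 7933 and 9063 (-0.19), MTOR had 426.3 and 428.3 (-0.01) and MYC had 3975 and 3383 (0.23); these 3 are named after their values were seen. Among the lower genes were thus the mTORC1 inhibitor DDIT4 and the mTORC1 subunit RPTOR. The inhibitors TSC1, TSC2 and AKT1S1, also named after their values were seen, were higher in co-culture. Their log2 ratios were 0.18, 0.60 and at least 0.69. A dim probe set of TSC2 went the other way, at -1.38 or lower.

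As deposited, mitochondrial ribosomal proteins, which build the separate ribosomes of mitochondria, had a median similar to that of cytosolic subunit genes. Their median was -0.2188 with quantile normalization and -0.2136 with loess. The cytosolic large subunit median moved to -0.0963 and -0.1045, and the small subunit median to -0.015 and -0.0039. The span between quartiles was 0.14 for cytosolic subunit genes, 0.69 for all genes and 0.46 for mitochondrial ribosomal proteins. Of 76 genes, 57 were negative, where 53.3% of all genes were, with a median of -0.22, and they ranged from -0.89 for MRPL24 (2317 with pDCs, 4293 alone) to 1.01 for MRPL1 (2540 and 1264), the only one past 2-fold, and just under it after quantile normalization (0.99) and loess (0.98). MRPS16 had 2251 and 4006 (-0.83), but 0.44 on its other probe set. Their large and small subunits had medians of -0.19 and -0.33, the opposite order to that of the cytosolic ribosome. Mitochondrial and cytosolic sets could not be tested against each other with 1 array per group.

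**Figure D4:**
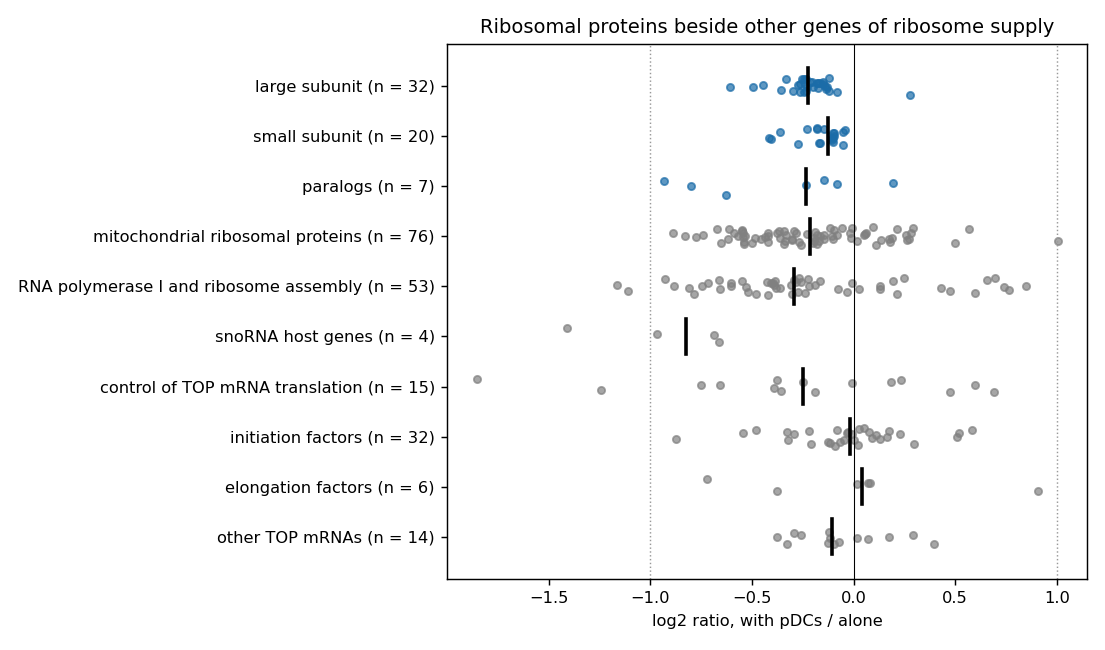
Log2 ratio (MM.1S with pDCs over alone) of each gene, in rows by list; blue points are cytosolic ribosomal proteins, grey points other lists, black bars the medians, and dotted lines mark 2-fold. Subunit genes are packed close together just left of 0, while assembly genes, mitochondrial ribosomal proteins and snoRNA host genes spread further to the left.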

How the data were processed

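The authors deposited 1 linear intensity for each probe set and array. The submitters' processing notes name MAS5; its version, scaling target and detection calls are unstated in the sources used here. The mean after trimming 2% at each end was 500.1 on both arrays; medians were 115.9 with pDCs and 124.0 alone. Neither array was centred on the other, and the scale is linear by its range. Of 54675 probe sets, 41091 had 1 gene symbol, 1801 several, 11721 none and 62 were controls; 0 symbols needed an update against RefSeq. A gene below the floor on both arrays got no ratio, and on 1 array a bound. Subunits were assigned by symbol. Of subunit genes, 15 were named only on probe sets with several symbols and were not used.

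Members, gene lists, thresholds and the rule for named genes were chosen with earlier results of these data known. The rule took subunit genes and paralogs past 1.5-fold, the 5 lowest and 5 highest ratios of each subunit, the stalk, 5S, FAU and elongation lists, all paralogs, the 5 widest gaps between probe sets, RPS6, and the 3 largest ratios of every other list. Alternatives were median centring, quantile normalization, loess (span 0.3), no floor, a floor at the 30th or at the 70th percentile, mean or median over probe sets, probe set classes, probe sets as units, a 1.5-fold threshold and paralogs counted with subunits; 2 more, and the wider start-site rule, were added after seeing the data. Python 3.11.15, numpy 2.4.6, pandas 2.3.3 and statsmodels 0.14.6 were used, and the calculation was tested on simulated data. The number of arrays limits the precision.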

Additional observations from a re-analysis of the deposited data

How the results depend on the processing

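The large subunit median (-0.22 on the log2 scale) stayed negative in all 14 alternatives, but moved to -0.0963 with quantile normalization and -0.1045 with loess. The small subunit median (-0.13) stayed negative too, and moved to -0.0858 with median centring, -0.015 with quantile normalization, -0.0039 with loess and -0.0681 with the mean over all probe sets. The cause of these shifts was not tested. The count of subunit genes with a negative ratio was 51 of 52. With the mean over all probe sets it was 38 of 52, and with the median over probe sets 45 of 51. It was 17 of 26 without the _x_at, _s_at and _a_at classes, which leave fewer genes, and 80 of 103 when probe sets were counted. Past 2-fold, 0 genes were lower and 0 higher; at 1.5-fold 1 was lower, and with probe sets as the unit 1 was higher. POLR1H turned to 0.12 (a bound) when the 3 classes were left out, since a dim probe set then stood for it. Of 60 named genes, 39 kept their sign in every alternative that could be run for them and 21 changed it in at least 1. No paired analysis was possible because each group has 1 array, and for the same reason no replicate could be left out. The alternatives that added probe sets with several symbols, or kept only bright subunit genes, were chosen after seeing the data. No detection calls were used, so dim probe sets have only the floor as their background.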
